A study of Mus musculus with 9 samples.

Results

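The 8 miRNAs described here are best known from blood cells and were followed in 9 small RNA-seq libraries of mouse liver and of MIN6, a cell line from a mouse insulinoma that resembles pancreatic beta cells. They were chosen by name: miR-142-5p, miR-142-3p, miR-223-3p, miR-150-5p and miR-146a-5p as miRNAs of leukocytes, and miR-451-5p, miR-144-3p and miR-486-5p as miRNAs of red cells. Of the 294 distinct miRNAs that the study's tables list at their reference start, 5 are members, and the other 3 members were in neither table and were placed by their hairpins. MIN6 cells, grown in high-glucose medium with fetal bovine serum, gave 3 TruSeq libraries, 3 v1.5 libraries and 1 NEXTflex library. Liver RNA of 1 female C57BL/6J mouse, 9 weeks old at purchase, gave 1 TruSeq and 1 NEXTflex library. The mouse had received saline by tail vein and was fasted overnight before the liver was flash frozen, and perfusion is not mentioned in the sources used here. Circulating blood, resident immune cells and vessel content therefore cannot be told apart in the liver libraries, nor can more cells of a type be told apart from more miRNA per cell. TruSeq and v1.5 are Illumina kits with fixed adapters, and NEXTflex is a kit whose adapters carry random bases at the ligated ends.

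The TruSeq MIN6 and v1.5 libraries were read on a GAIIx, and both liver libraries and the NEXTflex MIN6 library on a HiSeq, and the study extracted RNA with a column kit or, at the site of the GAIIx runs, with TRIzol. Within TruSeq the tissue therefore cannot be told apart from the platform, the sequencing facility or the extraction. Levels are given in RPMM, the authors' unit of reads per 1e6 mapped reads, here counted at a single 5′ end. The libraries had from 6.64 to 25.6 times 1e6 mapped reads. The hepatocyte marker miR-122-5p stood at 17244 RPMM in TruSeq liver and 532452 RPMM in NEXTflex liver, at 0.151 to 2.38 RPMM in the 6 GAIIx libraries and at 127.7 RPMM in NEXTflex MIN6. That last value was 0.0240% of the NEXTflex liver level. The 4 beta cell markers summed to 92937 to 223668 RPMM in MIN6 and to 914.3 and 478.1 RPMM in TruSeq and NEXTflex liver. Since miR-122-5p took most of the NEXTflex liver reads, every other level of that library is lower than on a scale without it.

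A miRNA is cut from a hairpin in the nucleus and then by Dicer in the cytoplasm, and 1 arm is held by an Argonaute protein, which uses the seed, bases 2 to 8 from the 5′ end, to find its targets. A shift of the 5′ end by a single base changes the seed. miR-142 is made in nearly all blood lineages, miR-223 in granulocytes and monocytes, and miR-150 in mature lymphocytes, while miR-146a dampens innate immune signalling and is also made outside blood. miR-144 and miR-451 share a primary transcript of red cell precursors, and miR-451 is the known exception to Dicer, since Argonaute 2 cuts its short hairpin and the product is then trimmed from its 3′ end. miR-486 lies in the ankyrin gene Ank1 and is abundant in red cells and muscle.

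The sequences below, from RefSeq (GRCm38.p6), are shown because seeds, shifted starts and read lengths recur in the results. Capitals mark the seed, and in the hairpin they mark the annotated miRNA. RefSeq entries were matched for 6 of the 8 members.
miR-142-5p: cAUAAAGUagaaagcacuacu
miR-142-5p from 2 nt upstream: cCCAUAAAguagaaagcacuac
miR-142-3p: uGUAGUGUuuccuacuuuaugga
miR-223-3p: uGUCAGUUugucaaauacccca
miR-146a-5p: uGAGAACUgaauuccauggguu
miR-146b-5p: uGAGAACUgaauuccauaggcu
miR-451-5p: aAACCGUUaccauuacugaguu
miR-144-3p: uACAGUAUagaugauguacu
Mir451a hairpin: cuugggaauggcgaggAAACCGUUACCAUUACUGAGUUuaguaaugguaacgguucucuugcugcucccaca
The members shown have different seeds, and miR-146a-5p shares its seed, GAGAACU, with its relative miR-146b-5p, so that a target site for the one also pairs with the seed of the other. Starting 2 nt upstream changes the seed of miR-142-5p from AUAAAGU to CCAUAAA.

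In GRCm38 the hairpins of 5 members lie on chromosome 11: Mir142 at chr11:87756864-87756927, inside the long noncoding RNA gene Mir142hg (chr11:87755577-87757270); Mir144 at chr11:78073005-78073070, Mir451a at chr11:78073170-78073241, 99 nt further along the same strand; and Mir146 at chr11:43374397-43374461 on the minus strand. Mir223 lies at chrX:96242817-96242926 and Mir150 at chr7:45121757-45121821. Mir486 at chr8:23142555-23142682 overlaps Mir3107 at chr8:23142573-23142662 on the opposite strand, both within Ank1. Reads of miR-486-5p fit either strand and were divided between them, so that the values of miR-486-5p given here are those of 1 copy and the other copy, miR-3107-5p, held nearly the same, with 6169 RPMM in TruSeq liver and 1638 RPMM in NEXTflex liver. In the mm9 coordinates of the deposited alignments, miR-142-5p started at base 87570369 of chromosome 11 and miR-451-5p at base 77886688.

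All 8 members had counts in both liver libraries. In MIN6, miR-150-5p, miR-451-5p and miR-144-3p had at most 1.34 RPMM in any library. The highest MIN6 level of the others ran from 5.26 RPMM for miR-142-5p to 720 RPMM for miR-146a-5p. At their reference starts, together with the miR-3107-5p copy, the 8 members made up 1.71% of the mapped reads of TruSeq liver and 0.511% of NEXTflex liver, against 0.0417% to 0.0532% in TruSeq MIN6, 0.0635% to 0.0743% in v1.5 MIN6 and 0.0666% in NEXTflex MIN6. Liver has 1 library in each preparation, of 1 mouse, so differences from liver carry no test. The ratio intervals below cover counting error alone, since reads without molecular identifiers are not independent molecules. Where MIN6 had 0 counts, the fold over a limit of 3 counts carries no interval and is not a firm lower bound. Within TruSeq, 7 of 8 members were over 10-fold higher in liver than in MIN6 after 1 RPMM was added to both, against 20.2% of the 11801 5′ ends that reached 10 RPMM in some library. Within NEXTflex the count was 6 of 8, against 19.4%. Of the 8 members, 5 reached 10 RPMM in liver alone, so the limit itself favoured a high ratio and these counts are a description. No member was over 10-fold lower in liver, against 10.6% of the 11801 within TruSeq and 11.6% within NEXTflex. The median log2 ratio of all 8 members was 6.50 within TruSeq and 5.41 within NEXTflex, where that of the 1532 5′ ends of at least 100 RPMM in some library was -0.53 and -0.49. For the 5 members that reached 100 RPMM it was 7.40 and 5.66. For the named entries among the 1532 it was -2.07 and -3.39.

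**Figure D1:**
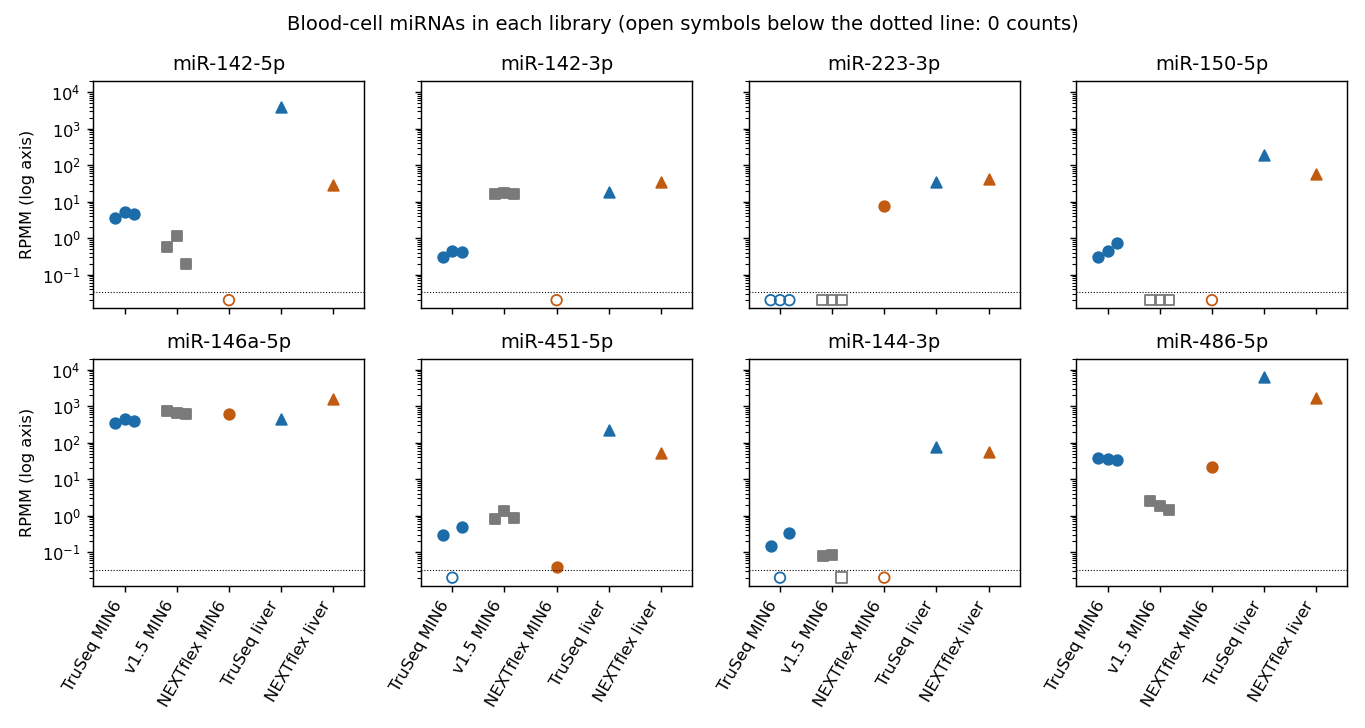
Level of each of the 8 members at its reference start (RPMM, log axis), 1 point per library, in TruSeq MIN6 (3), v1.5 MIN6 (3), NEXTflex MIN6 (1), TruSeq liver (1) and NEXTflex liver (1), with open symbols for 0 counts. Apart from miR-146a-5p, the TruSeq liver point lies above all 7 MIN6 points in every panel, while miR-142-3p lies at 16.3 to 16.9 RPMM in v1.5 MIN6 and 18.2 RPMM in TruSeq liver.

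Among the leukocyte members, miR-142-5p had the highest level in TruSeq liver. It stood at 3777 RPMM there and at 3.61, 5.26 and 4.65 RPMM in the TruSeq MIN6 libraries, 838 times their mean (95% interval 693 to 1006). In NEXTflex liver the same start had only 27.7 RPMM, and NEXTflex MIN6 had 0 counts, which puts liver 236-fold above the limit of 3 counts, 0.117 RPMM. Both preparations thus placed the miRNA in liver, at levels that differed by a factor of 136 on the same RNA. With all starts within 5 nt added the gap was smaller, 7263 RPMM in TruSeq liver against 137.5 RPMM in NEXTflex liver.

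The other arm of that hairpin, miR-142-3p, was lower in TruSeq liver and more even between the kits. It had 18.2 RPMM in TruSeq liver and 34.6 RPMM in NEXTflex liver, against 0.301, 0.438 and 0.415 RPMM in TruSeq MIN6 and 0 counts in NEXTflex MIN6. Within TruSeq the liver level was 47.2 times the MIN6 mean (24.9 to 97.7), which rests on 10 MIN6 counts. Within NEXTflex it was 295-fold above the limit. In v1.5 MIN6 it had 16.3, 16.9 and 16.6 RPMM, close to the TruSeq liver level, and liver was not analysed here with v1.5.

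The myeloid miR-223-3p had 35.4 RPMM in TruSeq liver and 42.0 RPMM in NEXTflex liver. It had 0 counts in all 6 GAIIx MIN6 libraries, so TruSeq liver was 301-fold above the limit of 3 counts over the 3 TruSeq MIN6 libraries, 0.118 RPMM. NEXTflex MIN6 had 7.71 RPMM, and 192 of its 197 counts were reads of a single length without a mismatch. The ratio of liver to MIN6 within NEXTflex was therefore only 5.45 (4.63 to 6.43). The MIN6 value was 18.4% of the NEXTflex liver level, and the source of these MIN6 counts was not tested.

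The lymphocyte miR-150-5p had 187.8 RPMM in TruSeq liver and 57.7 RPMM in NEXTflex liver. The TruSeq MIN6 libraries held 0.301, 0.438 and 0.747 RPMM, 14 counts in all, and the liver level was 379 times their mean (204 to 627). No count was found in NEXTflex MIN6, which puts NEXTflex liver 492-fold above the limit, nor in the 3 v1.5 libraries.

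The exception was miR-146a-5p, which was abundant in both sources. It had 338, 453 and 389 RPMM in TruSeq MIN6 and 447 RPMM in TruSeq liver, so that the liver level lay inside the MIN6 range, at 1.14 times the mean. With only reads that had no mismatch, the order turned, with a log2 ratio of -0.41 in place of 0.18. Over all the alternatives tried, this log2 ratio ran from -0.41 to 1.21. In NEXTflex it had 615 RPMM in MIN6 and 1556 RPMM in liver, 2.53 times as much (2.48 to 2.58). Its relative with the same seed, miR-146b-5p, went the other way. It had 193, 236 and 174 RPMM in TruSeq MIN6 and 25.9 RPMM in TruSeq liver, and 458 RPMM in NEXTflex MIN6 and 11.8 RPMM in NEXTflex liver.

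All 3 red cell members were over 10-fold higher in liver than in MIN6 in both preparations, against 20.2% and 19.4% of the 5′ ends of at least 10 RPMM, a limit that miR-451-5p and miR-144-3p reached in liver alone. miR-486-5p, at 6186 RPMM, was the highest member in TruSeq liver, and it had 1651 RPMM in NEXTflex liver. TruSeq MIN6 held 36.9, 36.4 and 33.6 RPMM and NEXTflex MIN6 21.5 RPMM, so liver was 174 times the MIN6 level in TruSeq (165 to 188) and 76.7 times in NEXTflex (70.5 to 83.6). Unlike the other red cell members it had over 30 RPMM in every TruSeq MIN6 library.

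miR-451-5p had 225.3 RPMM in TruSeq liver and 51.6 RPMM in NEXTflex liver. In MIN6 it had 0.301, 0 and 0.498 RPMM in TruSeq, 8 counts in all, and a single count in NEXTflex. Liver was 846 times the MIN6 mean in TruSeq (365 to 1667), and in NEXTflex the ratio was 1320 with a counting interval of 236 to 52216. Its neighbour miR-144-3p had 74.3 RPMM in TruSeq liver and 55.2 RPMM in NEXTflex liver. The TruSeq MIN6 libraries held 0.150, 0 and 0.332 RPMM of it, 5 counts in all, and NEXTflex MIN6 held 0 counts. These levels gave a ratio of 462 in TruSeq (162 to 1171), and NEXTflex liver was 470-fold above the limit of 3 counts. miR-144-5p, the partner arm, had 61.6 RPMM in TruSeq liver and 9.38 RPMM in NEXTflex liver.

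**Figure D2:**
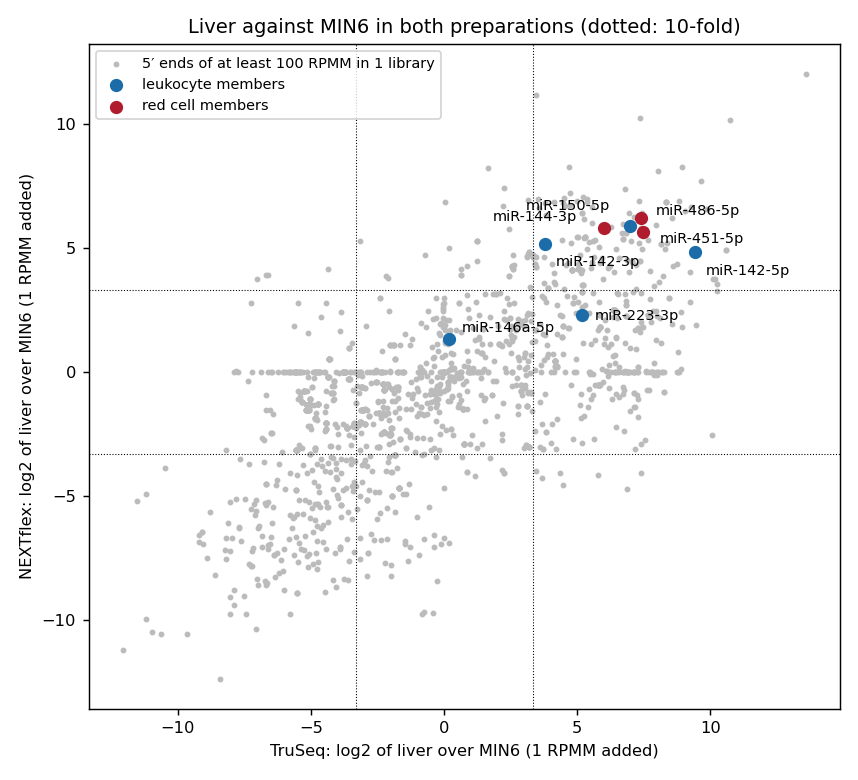
Log2 ratio of liver over MIN6 after 1 RPMM was added, within TruSeq (horizontal axis) and within NEXTflex (vertical axis), for 1532 5′ ends of at least 100 RPMM in some library (grey) and for the 8 members (blue for leukocyte, red for red cell), of which 3 lie below that limit. The 3 red cell members sit at 6.02 to 7.48 on the TruSeq axis and 5.66 to 6.20 on the NEXTflex axis, and miR-146a-5p sits at 0.18 and 1.34.

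Other miRNAs that are known from blood cells but are made widely were split, with 3 of 6 higher in liver within TruSeq and 2 of 6 within NEXTflex. Their summed level was 24208 RPMM in TruSeq liver, most of it miR-92a-1-3p, against 10365 to 10692 RPMM in TruSeq MIN6, and 9314 RPMM in NEXTflex liver against 18952 RPMM in NEXTflex MIN6. Of the 6 on the list, 1 was over 10-fold higher in liver within each preparation, against 27.1% of the 1532 5′ ends within TruSeq and 12.6% within NEXTflex, namely miR-92a-1-3p, with 168.5 to 174.7 RPMM in TruSeq MIN6 against 17643 RPMM in TruSeq liver. miR-342-3p was over 10-fold lower in liver in both preparations, with 1390 to 1651 RPMM in TruSeq MIN6 and 33.2 RPMM in TruSeq liver. It was the list's only such member within TruSeq, where 29.4% of the 1532 5′ ends were over 10-fold lower, and 1 of 2 within NEXTflex, where 18.4% were. The median log2 ratio of the list was -0.10 within TruSeq and -2.73 within NEXTflex. Both miRNAs of the endothelial marker list, miR-126-3p and miR-126-5p, were over 10-fold higher in liver in each preparation, as were all 4 hepatocyte markers, against the same 27.1% and 12.6%, so other lists also held miRNAs with a high ratio of liver to MIN6. The part of cell makeup in these ratios was not tested.

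The 2 liver libraries were made from the same RNA, 1 with each kit, so that a difference between the kits and one between single libraries cannot be told apart. Only miR-142-5p was over 10-fold lower in NEXTflex than in TruSeq, 1 of 8 members, against 24.5% of the 1532 5′ ends and 19.5% of the 11801. None was over 10-fold higher, against 4.37% and 12.8%. The median log2 ratio of NEXTflex over TruSeq was -1.05 for the 8 members, of which 3 stayed below 100 RPMM, and -1.91 for the 5 that reached it. It was -1.58 for the 1532 5′ ends of at least 100 RPMM and -0.53 for the named entries among them. The log2 ratios were -2.10 for miR-451-5p, -1.91 for miR-486-5p and 1.80 for miR-146a-5p, and these kept their signs under every scaling tried. Those of miR-150-5p (-1.69), miR-144-3p (-0.42) and miR-223-3p (0.24) changed sign under at least 1 scaling, and that of miR-142-3p (0.89) did so when starts within 5 nt were added. In NEXTflex liver the reads of a member without a mismatch came in 2 to 7 lengths, the rarest of which still held 16 to 323 counts, while in TruSeq liver they came in 5 to 13 lengths. Counting intervals of the NEXTflex values therefore leave out error that these few read forms carry. For the same reason, 0 counts of a start, length or last base in NEXTflex liver do not show that it was absent.

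The balance of the 2 arms of miR-142 differed between the kits in MIN6. With starts within 5 nt counted together, the 5p arm held 86.0% to 94.8% of the hairpin's counts in the TruSeq MIN6 libraries and 1.35% to 4.80% in the v1.5 MIN6 libraries, where the 3p arm stood at 30.2 to 31.6 RPMM. These ranges did not overlap. In liver the 5p arm held 99.3% of the counts in TruSeq (99.3% to 99.4%) and 79.9% in NEXTflex (78.3% to 81.5%). At the miR-144 hairpin the 5p arm held 43.6% of the counts in TruSeq liver and 14.5% in NEXTflex liver, and at the miR-223 hairpin 11.5% in TruSeq liver and none of 604 counts in NEXTflex liver.

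**Figure D3:**
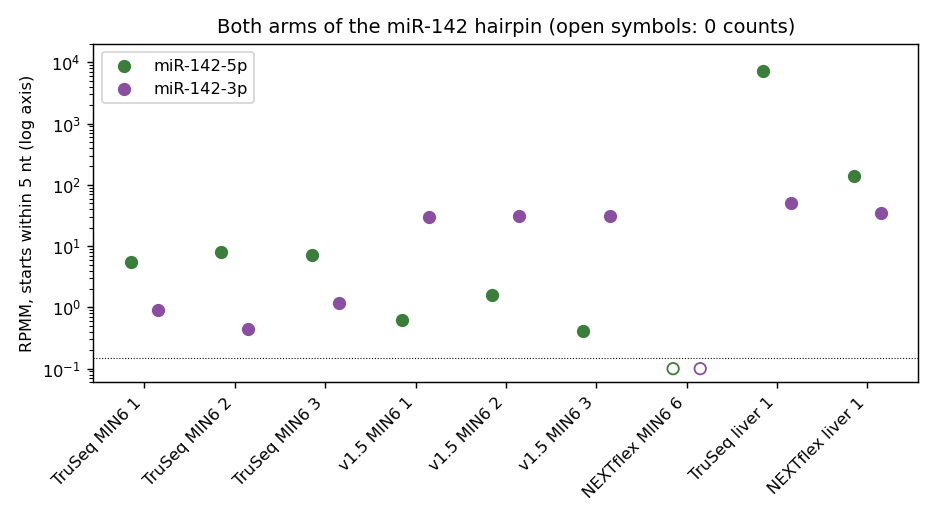
Level of both arms of the miR-142 hairpin (RPMM summed over starts within 5 nt of the reference start, log axis) in each of the 9 libraries, with open symbols for 0 counts. The 5p arm lies above the 3p arm in the 3 TruSeq MIN6 libraries and both liver libraries, and below it in the 3 v1.5 MIN6 libraries.

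The v1.5 and TruSeq MIN6 libraries, with 3 replicates each from the same platform, facility and date, allow a test of the preparation. Among the 5 members that reached 100 RPMM in some library, 4 passed (edgeR quasi-likelihood test, Benjamini-Hochberg adjusted p under 0.05), against 77.7% of the 1493 5′ ends tested, so the members passed about as often as other 5′ ends. Lower with v1.5 were miR-486-5p, miR-142-5p and miR-150-5p, 3 of 5 against 38.8%, and higher was miR-146a-5p, 1 of 5 against 38.9%. miR-486-5p averaged 35.6 ± 1.82 RPMM (SD, n = 3) with TruSeq and 1.90 ± 0.534 with v1.5, a log2 fold change of -4.23 (SE 0.28, edgeR adjusted p = 2.85e-05). miR-142-5p averaged 4.51 ± 0.832 with TruSeq and 0.640 ± 0.496 with v1.5, a log2 fold change of -2.78 (SE 0.57, edgeR adjusted p = 0.00512), which was -3.51 without v1.5 replicate 2. For miR-150-5p, with 14 counts against 0, TruSeq was 5.77-fold above the limit of 3 counts over the v1.5 libraries (edgeR adjusted p = 0.00600).

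miR-146a-5p averaged 393 ± 57.3 RPMM with TruSeq and 658 ± 55.5 RPMM with v1.5, a log2 fold change of 0.74 (SE 0.13, edgeR adjusted p = 0.00221). Its relative miR-146b-5p had almost the same log2 fold change, 0.78 (SE 0.12, edgeR adjusted p = 0.00152). miR-451-5p, with 8 counts against 35, did not pass, at a log2 fold change of 1.71 (SE 0.69, edgeR adjusted p = 0.0648), but it passed without TruSeq replicate 2 (1.25, edgeR adjusted p = 0.0409) and without TruSeq replicate 3 (2.65, edgeR adjusted p = 0.0388). miR-142-3p entered only at the lower limit of 10 RPMM, where 64.2% of 9835 5′ ends passed. There it was higher with v1.5, at 16.6 ± 0.320 RPMM against 0.385 ± 0.0735 RPMM, a log2 fold change of 5.37 (SE 0.17, edgeR adjusted p = 3.53e-06). miR-144-3p did not pass there (edgeR adjusted p = 0.237) with 7 counts in all, and miR-223-3p had none.

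The members differed in how sharply their reads began. Of the counts within 5 nt, the share at the reference start ran from 36.1% to 98.8% over the 8 members in TruSeq liver and from 20.2% to 100% in NEXTflex liver. In TruSeq liver the arms of miR-142 had the lowest shares, and in NEXTflex liver miR-142-5p did. In TruSeq liver, 52.0% of the counts of miR-142-5p began at the reference start (51.7% to 52.3%) and 41.2% began 2 nt upstream (41.0% to 41.5%), 2995 RPMM of reads with the seed CCAUAAA. In NEXTflex liver the order was reversed, with 20.2% at the reference start (399 of 1979 counts) and 68.5% from 2 nt upstream (66.4% to 70.5%). A further 11.4% began 3 nt upstream in NEXTflex, against 1.66% in TruSeq. Reads from 1 nt downstream had 315.8 RPMM in TruSeq and 0 counts in NEXTflex (exact 95% interval of the share up to 0.186%). These intervals cover counting error alone, and the NEXTflex reads without a mismatch at the reference start came in only 2 lengths.

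**Figure D4:**
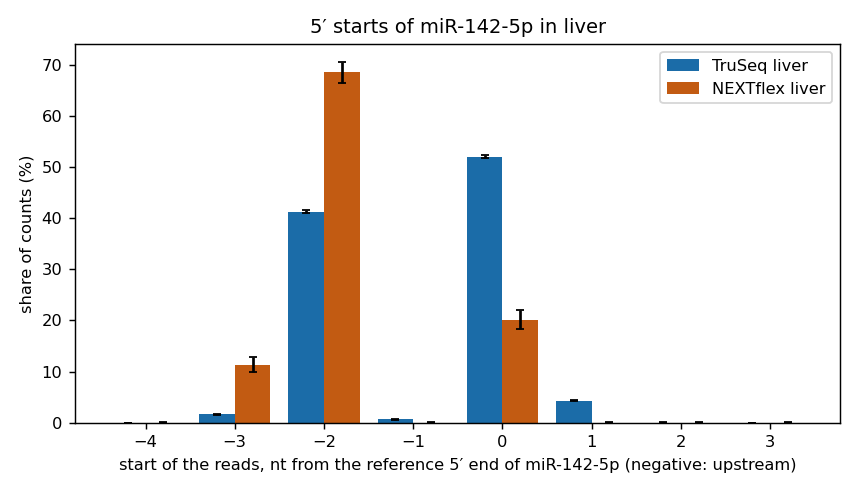
Share of the counts of miR-142-5p in liver (%) by the start of the reads, in nt from the reference 5′ end, with exact 95% binomial intervals of counting error, in 1 TruSeq and 1 NEXTflex library. In TruSeq the tallest bar is the reference start, 52.0%, and in NEXTflex it is the start 2 nt upstream, 68.5%.

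miR-142-3p in TruSeq liver was split between the reference start (36.1%), 1 nt downstream (20.9%) and 3 nt downstream (38.4%), while all 498 counts of NEXTflex liver began at the reference start. In v1.5 MIN6, 53.5% to 54.3% of its counts began there and 44.2% to 45.4% began 1 nt downstream. miR-146a-5p began 1 nt upstream in 14.2% to 17.1% of the counts in TruSeq MIN6, 3.07% to 3.63% in v1.5 MIN6, 15.4% in TruSeq liver, 0.776% in NEXTflex MIN6 and 1.98% in NEXTflex liver. The TruSeq shares were thus alike in both sources and above those of the other kits. miR-144-3p began 1 nt upstream in 10.3% of the counts of TruSeq liver and in none of NEXTflex liver. For miR-223-3p, miR-150-5p, miR-451-5p and miR-486-5p, 94.5% to 100% of the counts began at the reference start in both liver libraries.

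Read lengths also varied. miR-451-5p came in TruSeq liver mainly as reads of 23 nt (46.0%), 26 nt (20.1%), 22 nt (11.7%) and 21 nt (10.1%), all without a mismatch. Past the 22 nt of the annotated miRNA, the longer ones thus match the hairpin bases that follow it. The first of these bases is U, so a 23-nt read cannot be told apart from a 22-nt form with an added U. NEXTflex liver held only 3 lengths, with 51.0% of 26 nt, 27.8% of 21 nt and 21.2% of 29 nt. The 23-nt form, the commonest in TruSeq with 1666 counts, had no counts in NEXTflex among the 722 without a mismatch. miR-144-3p, cut by Dicer from the neighbouring hairpin, had reads of 20 nt (49.2%), 18 nt (33.9%) and 19 nt (14.7%) in TruSeq liver and of 19 nt (58.6%) and 18 nt (41.4%) in NEXTflex liver, none longer than its annotated 20 nt. miR-150-5p was mainly 22 nt in both, 55.9% in TruSeq and 69.9% in NEXTflex.

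**Figure D5:**
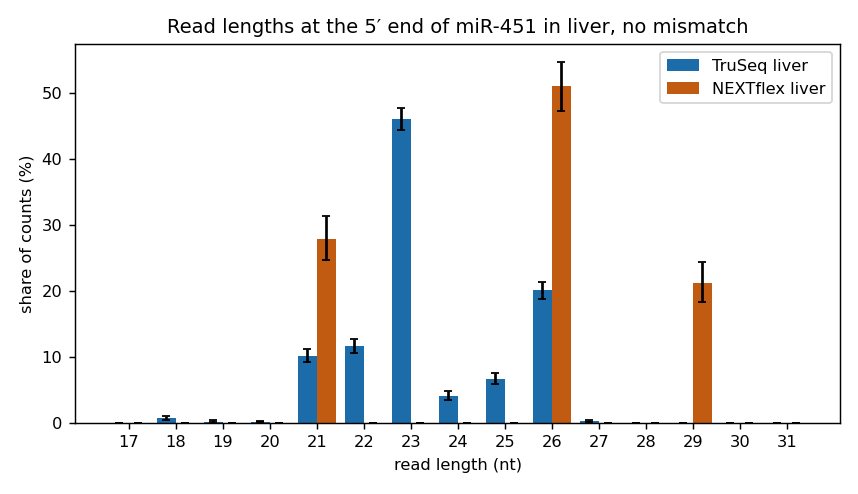
Share of the counts of miR-451-5p in liver without a mismatch (%) by read length (nt), with exact 95% binomial intervals of counting error, in 1 TruSeq and 1 NEXTflex library. TruSeq has its tallest bar at 23 nt, 46.0%, and NEXTflex at 26 nt, 51.0%, with empty bars between 21 and 26 nt.

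Some members often carried a last base that differs from the genome. Reads of miR-486-5p whose only mismatch was a final T were 27.5% of its counts in TruSeq liver (27.3% to 27.8%) and 26.7% in NEXTflex liver (26.1% to 27.3%), and those with a final A were 8.45% and 10.4%. In MIN6 a final A was on 10.02% to 12.05% of its counts in TruSeq and on 24.5% in NEXTflex, where it was above the NEXTflex liver share. The same final T was on 29.1%, 32.3% and 29.5% in the TruSeq MIN6 libraries and 28.5% in NEXTflex MIN6, so the share with a final T, unlike that with a final A, was close in both sources and kits. Without a mismatch were 44.2% to 50.5% of its counts in these MIN6 libraries and 54.0% and 51.8% in TruSeq and NEXTflex liver. miR-146a-5p had a final T on 19.6% of its counts in TruSeq liver and 13.7% in NEXTflex liver, against 10.6% to 11.5% in TruSeq MIN6, 12.8% to 13.8% in v1.5 MIN6 and 13.4% in NEXTflex MIN6. Liver was thus above MIN6 in TruSeq, while the NEXTflex libraries were nearly equal. miR-150-5p had a final T on 14.5% in TruSeq liver and 3.61% in NEXTflex liver, and a final A on 11.3% and 11.1%. A final T was also on 18.7% of the counts of miR-142-3p and 12.7% of those of miR-223-3p in TruSeq liver, and on none of their 498 and 604 counts in NEXTflex liver. For miR-451-5p, miR-144-3p and miR-142-5p such a final T was on at most 0.711% in either liver library. Only a final T that differs from the genome was counted, however. The hairpin base after the annotated miR-451-5p is U, and the annotated miR-144-3p and miR-142-5p end in U. A U added at such a place could not be seen.

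Across the 9 libraries, the named entries of the study's tables whose log2 level (1 RPMM added) was most like that of a member were given by Pearson's r, as a description of points that share kit, tissue and scaling. For miR-486-5p the closest was miR-92a-1-3p (r = 0.984), for miR-451-5p miR-100-5p (r = 0.995) and for miR-144-3p miR-122-3p from 1 nt downstream (r = 0.998). miR-142-5p was closest to miR-192-5p from 1 nt downstream (r = 0.988), a hepatocyte marker, and miR-150-5p to miR-5105 from 7 nt downstream (r = 0.996) and then to miR-143-3p (r = 0.995). miR-223-3p was closest to miR-107-3p (r = 0.989) and miR-142-3p to miR-101b-3p from 1 nt downstream (r = 0.966). miR-146a-5p had the lowest r of the members, 0.928 with miR-21-5p from 1 nt downstream.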

How the data were processed

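Small RNA of MIN6 cells (7 libraries) and mouse liver (2) was measured. The authors deposited expected counts for every distinct alignment to mm9, where reads that fitted several places equally well counted as fractions at each. The submitters' processing notes name cutadapt and Bowtie, and degenerate adapter bases of NEXTflex reads were trimmed, so molecules could not be counted. Here all counts that shared a 5′ end were added up and scaled by the mapped reads that the study's supplement gives. These sums over all alignments exceeded the mapped reads by 0.264% to 8.41%. Members were located where the RPMM equalled their rows in the supplement's miRNA lists (relative tolerance 3e-05), which joined all 414 entries. miR-142-3p and miR-144-3p were placed by their distance from a located miRNA, and miR-223-3p as a pair of arms, with 30, 18 and 20 kinds of mismatch in the edit strings and 0 in conflict with the sequence. miR-150-3p, miR-486-3p and miR-155-5p were not analysed here. The members and lists were chosen with earlier results of these data known. All 8 members were to be named, with partner arms, relatives, marker lists and, for likeness, the 2 entries of highest r outside the hairpin, of which the text names the first or both.

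Ratios were taken after adding 1 RPMM unless a plain ratio of levels with its exact (Clopper-Pearson) 95% interval is given. A count of 0 was read as a limit of 3 counts over the group. Liver has 1 library a preparation and was not tested. v1.5 and TruSeq in MIN6 were compared with edgeR 4.0.16 (quasi-likelihood test, counts rounded to whole numbers, mapped reads as library sizes, Benjamini-Hochberg adjustment over 1493 5′ ends with counts in these libraries, out of 1532 of at least 100 RPMM in at least 1 of 9 libraries), and with DESeq2 1.42.0 as an alternative, in R 4.3.3. Standard errors are the log2 fold change over the square root of F. The study calls the replicates biological, the labels do not say whether they were separate cultures, and p-values measure the spread between these libraries, which differed by 32.0 to 130 times counting noise (chi-square per degree of freedom). The edgeR step was tested on simulated data. Python 3.11.15 was used for the rest.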

Additional observations from a re-analysis of the deposited data

Results flagged for a closer look

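Among the members, their partner arms and relatives and the marker and wide lists, 4 miRNAs had a difference between NEXTflex and TruSeq of opposite sign in liver and in MIN6, where the NEXTflex library lay on the same side of all 3 TruSeq libraries. The difference between the sources was not tested, since NEXTflex has 1 library in each. For miR-142-3p the log2 ratio of NEXTflex over TruSeq (1 RPMM added) was 0.89 in liver and -0.47 in MIN6, where it rests on 10 TruSeq counts and 0 NEXTflex counts. With starts within 5 nt added, the liver ratio was -0.53, of the same sign as in MIN6. For miR-146b-5p it was -1.07 in liver and 1.18 in MIN6, with 25.9 against 11.8 RPMM in liver and 174 to 236 against 458 RPMM in MIN6. For 2 of the wide list it was near 0 in one of the sources, at -0.044 in liver and 2.62 in MIN6 for miR-93-5p, and at -0.53 in liver and 0.14 in MIN6 for miR-25-3p. TruSeq MIN6 was read on a GAIIx and the other 3 libraries compared here on a HiSeq. The paper states that NEXTflex MIN6 was made from the RNA of a TruSeq library read on a HiSeq, which is not among the 9 libraries. The MIN6 comparison thus also differs in RNA, extraction, facility and date, while the liver libraries share their RNA. The part of the platform and of these differences was not tested.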

How the results depend on the processing

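Of the alternatives tried, none moved the count of members over 10-fold by more than 1.5 times. Leaving out each TruSeq MIN6 library gave 7 to 7 members within TruSeq, adding 5 RPMM gave 5 within TruSeq and 4 within NEXTflex, and scaling without miR-122-5p gave 7 within NEXTflex. Scaling moved the median log2 ratio of all 5′ ends tested, which was -0.53 within TruSeq and -1.58 between the liver libraries, to 0.12 and -0.51 with median-of-ratios size factors and to -0.17 and -2.35 with reads on named 5′ ends. For v1.5 against TruSeq, 1160 5′ ends passed (581 higher, 579 lower with v1.5). The number was 6311 of 9835 (3502 higher, 2809 lower) from 10 RPMM on and 28696 of 72881 (17900 higher, 10796 lower) with no limit but 10 counts over the libraries, since more 5′ ends were tested, 966 of 1410 (551 higher, 415 lower) with mismatched reads left out, and 1102 to 1152 when each library was left out. Replicate numbers are shared by both kits, but the deviations of libraries with the same number correlated at 0.19, -0.079 and 0.0062, so they do not pair the samples, and a replicate block left 1147 calls and changed no call of a member. Of the member ratios in the liver comparisons under all alternatives, 106 stayed within 1 SD of the MIN6 libraries or, without replicates, within 1.1-fold, and 110 moved further, with no difference over 10-fold changing sign. miR-451-5p passed without TruSeq replicate 2 or 3 (edgeR adjusted p = 0.0409 and 0.0388). With mismatched reads left out, 8 of 16 shares at the reference start in liver left their counting interval. At MIN6 levels under 1 RPMM, a few counts set the ratio.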
